A study of Mus musculus with 14 samples.

Results

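Myc, Mycn and the Max network are 8 genes (Myc, Mycn, Max, Mxd1, Mxd3, Mxd4, Mxi1 and Mnt) taken by symbol out of the 15803 genes that the exon array named. They were read by 59 probe sets, from 4 for Myc to 14 for Mnt, each annotated to that gene alone. A probe set is several probes read together, usually within 1 exon, and the level of a gene is the mean of its probe sets on the log2 scale, so that a difference of 1 is a doubling of signal.

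RNA came from 14 thymic lymphomas of mice that model T-cell acute lymphoblastic leukaemia (T-ALL), 7 tumours from Vav-SB mice and 7 from CD4-SB mice. Sleeping Beauty transposons, moved about by a transposase, mutate the genes they land in. By what is known of the study, the transposase is switched on by Cre under Vav elements, active in blood progenitors, in Vav-SB mice, and under Cd4 elements, active in developing T cells, in CD4-SB mice. The labels give the model and the diagnosis of each tumour, and neither alleles, age, sex nor which tumours share an animal. The title of the series asks how the cell of origin bears on the mutations that T-ALL selects, and Vav-SB against CD4-SB is the comparison the labels set up. Normal thymus was not analysed here, so no level can be called raised over healthy cells. Tumours are numbered 1 to 7 within each model.

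Myc and Mycn are transcription factors that bind DNA only as a pair with Max, at the E-box CACGTG, and switch on genes for growth, ribosome building and division. The Mxd proteins, Mxi1 and Mnt compete for Max and for the same site, and repress through Sin3 corepressors. In developing T cells and in T-ALL, Notch1 is a known activator of Myc, while Mycn is mainly known from embryonic tissue and neural tumours.

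The E-box is the site all pairs of the network share, and 3 of the 7 genes searched carry it near their own start site. The RefSeq promoter windows used, of build GRCm38.p6, span 250 bases before to 50 after a start site. They were at hand for 7 of the 8 genes, in 9 windows. Myc had no window, so its promoter was not searched for either motif below. The E-box, which reads the same on both strands, was found in 3 of the 9 windows. It occurs in 7.15% of all 32851 such windows. Positions are counted from the start site of the window used, and the RefSeq gene spans of Max and Mnt begin upstream of that site. The 30 bases around the E-box are shown 5′ to 3′ with the E-box in capitals. Its first base lies at -3 from that start site in Max, -219 in Mxd4 and -123 in Mnt.
Max, chr12:76962234-76962263, minus strand: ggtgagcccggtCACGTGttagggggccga
Mxd4, chr5:34187912-34187941, minus strand: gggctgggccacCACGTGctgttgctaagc
Mnt, chr11:74830789-74830818, plus strand: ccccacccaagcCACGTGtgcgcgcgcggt
A second motif searched, the E2F site TTTGGCGC on either strand, occurs in 0.514% of windows and lies at -183 and -168 in the Mycn window, chr12:12941787-12942086 on the minus strand. Matches of this kind describe letters and show no binding.

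As facts of the whole array, 2284 genes passed in limma at a Benjamini-Hochberg adjusted p of 0.05, which is 14.5% of those tested, with 1150 up in Vav-SB tumours and 1134 down. In 4.04% the 7 Vav-SB and 7 CD4-SB tumours did not overlap. T-lineage markers, 9 of 11 measured, had a mean level of 10.41 ± 0.14 in Vav-SB tumours and 9.99 ± 0.32 in CD4-SB tumours (SD, n = 7 each), and 2 of them rose in Vav-SB. Markers of other cell types were listed for myeloid, dendritic and B cells and, as 1 list, for stromal, endothelial and epithelial cells. The 45 measured of 48 had a mean level between 7.47 and 8.15 in each Vav-SB tumour and between 7.83 and 8.96 in each CD4-SB tumour. Of these, 7 of 14 myeloid, 2 of 9 dendritic and 1 of 10 B markers were lower in Vav-SB. Of the 12 stromal, endothelial and epithelial markers 3 were lower and 1 was higher. Separately, 0 of 6 NK and 0 of 3 erythroid markers passed. Of 4 genes from the Y chromosome 2 were measured, and their mean was above 9 in Vav-SB tumours 4, 5 and 6 and CD4-SB tumour 3 and below 5 in the others. In whole tumours, fewer cells of a type and less RNA per cell cannot be told apart.

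Across the network, 1 of the 8 genes passed, Mxd3, and 0 of 8 had groups that did not overlap. Before adjustment 2 of the 8, Mxd3 and Myc, had a p under 0.05, near the 27.8% of all genes that did. The difference between Vav-SB and CD4-SB tumours had a median of -0.04 over the 8 genes and 0.0043 over all genes. The widest scatter between tumours was that of Myc and Mycn in CD4-SB.

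**Figure D1:**
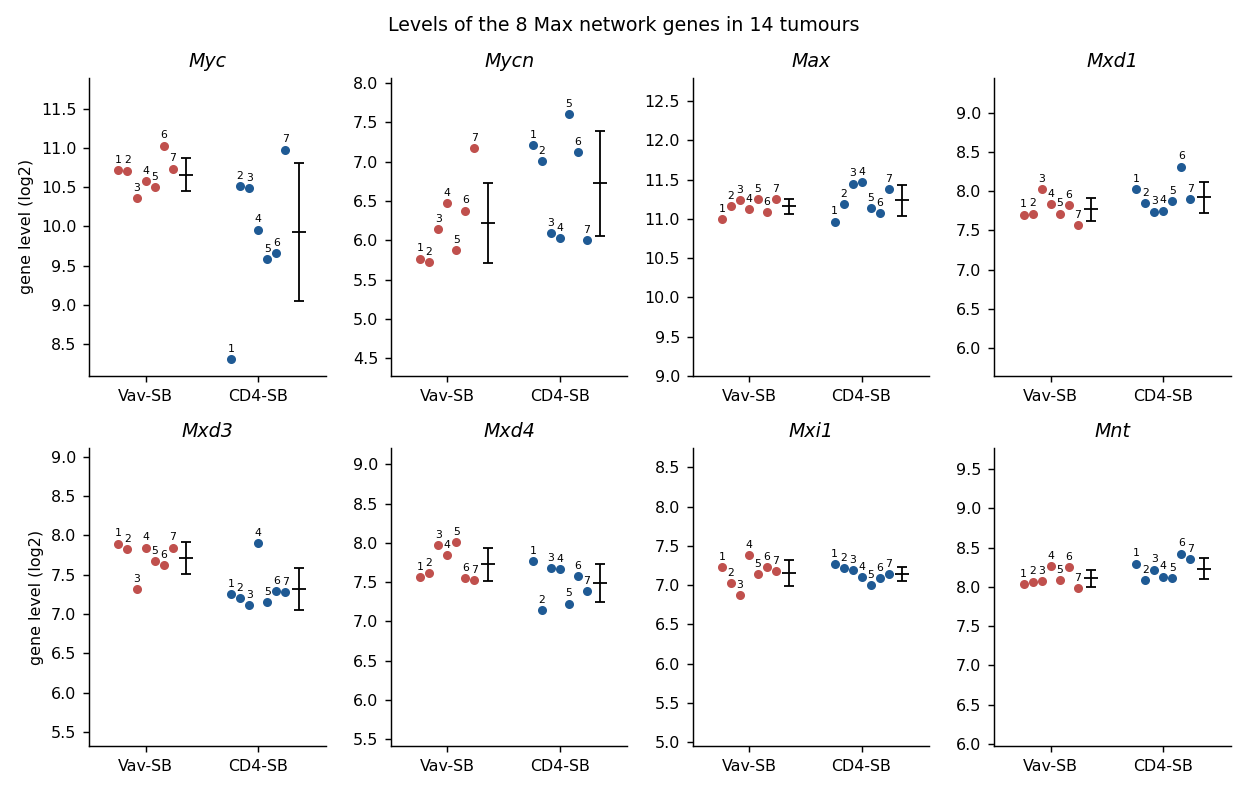
Level of each gene (log2, y axis, the same span of 3.8 in every panel) in 7 Vav-SB tumours (red, left) and 7 CD4-SB tumours (blue, right), numbered by tumour, with mean and SD in black. Myc is spread more widely in CD4-SB than in Vav-SB, and Mycn lies in separate sets in CD4-SB.

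Myc, the driver of growth programmes in T-ALL, had levels of 10.72, 10.71, 10.36, 10.58, 10.50, 11.03 and 10.74 in Vav-SB tumours 1 to 7, against 8.31, 10.52, 10.49, 9.96, 9.59, 9.66 and 10.98 in CD4-SB tumours 1 to 7. All Vav-SB tumours lay within 0.7 of each other, while CD4-SB tumour 1 lay far below the rest and CD4-SB tumour 7 beside the highest Vav-SB tumour, so the groups overlapped. Means were 10.66 ± 0.21 in Vav-SB and 9.93 ± 0.87 in CD4-SB (SD, n = 7 each). The difference of 0.73 (SE 0.31, 95% interval 0.07 to 1.40) did not pass in limma after adjustment (adjusted p = 0.135, unadjusted p = 0.0324). The SD in CD4-SB was 4.09 times that in Vav-SB, a ratio exceeded by 3.35% of genes, where the median gene had 1.37. The Vav-SB side was ordinary, as 42.5% of genes had a larger SD there, against 4.47% in CD4-SB. With 1 tumour kept per title number the difference was 1.08 and passed in limma (adjusted p = 0.0436). That fit kept the first tumour of each number, CD4-SB tumours 1, 3, 4 and 5 beside all 7 Vav-SB tumours. It thus left out CD4-SB tumours 2 and 7, the highest of their model in Myc, and tumour 6. Another choice of tumours was not tried. This fit also pools the spread of both models, and the side with fewer tumours was the more variable one. Its p-value can thus come out too low. The difference also passed without CD4-SB tumour 7 (0.91, limma adjusted p = 0.0464). Without CD4-SB tumour 1 it was 0.46 (adjusted p = 0.174).

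Myc is next set beside the markers of other cell types. CD4-SB tumour 1, lowest in Myc, had the highest marker level, 8.96, and with that level as a covariate the Myc difference turned to -0.10 (SE 0.38, limma adjusted p = 0.902). The marker level lay between 7.47 and 8.15 in Vav-SB tumours, and only CD4-SB tumours 2 and 7 lay inside that range. Model and marker level are thus partly confounded. Here and below, a difference lost or turned with this covariate cannot be assigned to either. Within the CD4-SB model Myc and the marker level had r = -0.73 (exact permutation p = 0.0569, two-sided) and rho = -0.75 (exact permutation p = 0.0663), and r = -0.425 without the 2 tumours farthest from the median. Among the 16 relations of Myc and Mycn to other levels tested, this one had an adjusted p of 0.673 for r and 0.629 for rho, and 0 of 16 passed with 0 under an unadjusted 0.05.

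**Figure D2:**
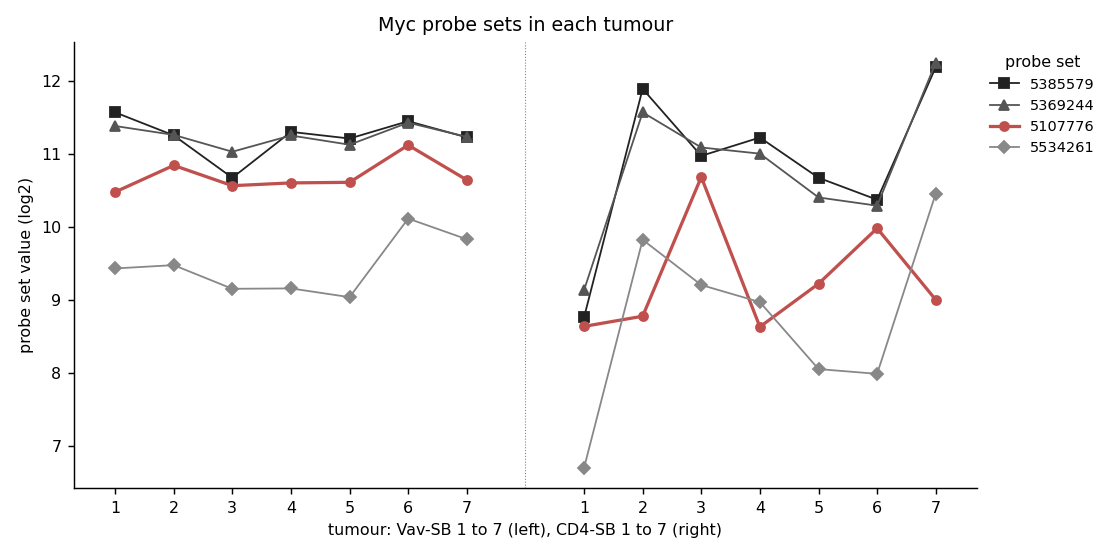
Values (log2, y axis) of the 4 Myc probe sets in Vav-SB tumours 1 to 7 (left) and CD4-SB tumours 1 to 7 (right). Probe set 5107776 (red) keeps its distance to the others in Vav-SB and drops away from them in CD4-SB tumours 2, 4 and 7.

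The 4 Myc probe sets did not move as one in CD4-SB tumours. Probe set 5107776 read 10.48, 10.84, 10.57, 10.60, 10.61, 11.12 and 10.64 in Vav-SB tumours 1 to 7, against 8.64, 8.78, 10.68, 8.63, 9.22, 9.98 and 9.0 in CD4-SB tumours 1 to 7. Vav-SB tumours again lay closer together than CD4-SB tumours, 6 CD4-SB tumours lay below all Vav-SB tumours, and CD4-SB tumour 3 lay among them. The mean of the other 3 probe sets was 10.80, 10.67, 10.29, 10.57, 10.46, 11.00 and 10.77 in Vav-SB tumours 1 to 7, against 8.20, 11.10, 10.42, 10.40, 9.71, 9.55 and 11.64 in CD4-SB tumours 1 to 7. By these 3, CD4-SB tumours 2 and 7 lay above every Vav-SB tumour, whereas by 5107776 they lay below every one.

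Taken as 5107776 minus the mean of the other 3, Vav-SB tumours ranged from -0.32 to 0.28 around a median of 0.12. CD4-SB tumours 1, 3 and 6 had 0.44, 0.26 and 0.43, tumour 5 had -0.49, and tumours 4, 2 and 7 had -1.77, -2.32 and -2.63. CD4-SB tumours 2, 4, 5 and 7 thus lay below the lowest Vav-SB value, tumour 5 narrowly and the other 3 by far. Probe sets differ in brightness for the same RNA, so the offset is read between tumours and its sign is not. The other 3 probe sets kept together in CD4-SB, with r between 0.97 and 0.996 over 7 tumours. Probe set 5107776 had r of 0.0465, 0.00954 and 0.0512 with them. It was singled out from these same values, as the probe set least like the others in CD4-SB. Its low r and its offset are therefore a description.

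Taken alone, 5107776 was 1.42 higher in Vav-SB (SE 0.28, limma adjusted p = 0.00605 over all named probe sets), and the other 3 differed by 0.37 to 0.72 and did not pass. Of the 59 probe sets, 2 passed alone, 5107776 and 1 of Mxd3, against 8.52% of all named probe sets. Whether a probe set differs apart from the rest of its gene was asked with diffSplice, which called 0 of 59 members' probe sets against 1.33% of those tested, and with each probe set's own spread, which called 0 of 59 against 1.77%. For 5107776 the own-spread test gave 0.92 (SE 0.45, adjusted p = 0.365): the offset is large in 3 tumours and small in 4. At an unadjusted 0.05 diffSplice called 7 of the 59, beside 8.7% of those tested, and the lowest adjusted p was 0.18, for Mnt 4907180. Where along the gene a probe set lies was not used here.

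Mycn had gene levels of 5.77, 5.72, 6.14, 6.47, 5.87, 6.38 and 7.17 in Vav-SB tumours 1 to 7, against 7.22, 7.00, 6.09, 6.03, 7.60, 7.12 and 6.0 in CD4-SB tumours 1 to 7. CD4-SB tumours fell into separate sets, 3, 4 and 7 near 6 and the other 4 at 7.00 or more, and Vav-SB tumour 7 reached the upper set. Means were 6.22 ± 0.51 in Vav-SB and 6.72 ± 0.67 in CD4-SB (SD, n = 7 each), and the difference of -0.51 (SE 0.29, 95% interval -1.13 to 0.12) did not pass in limma (adjusted p = 0.285).

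**Figure D3:**
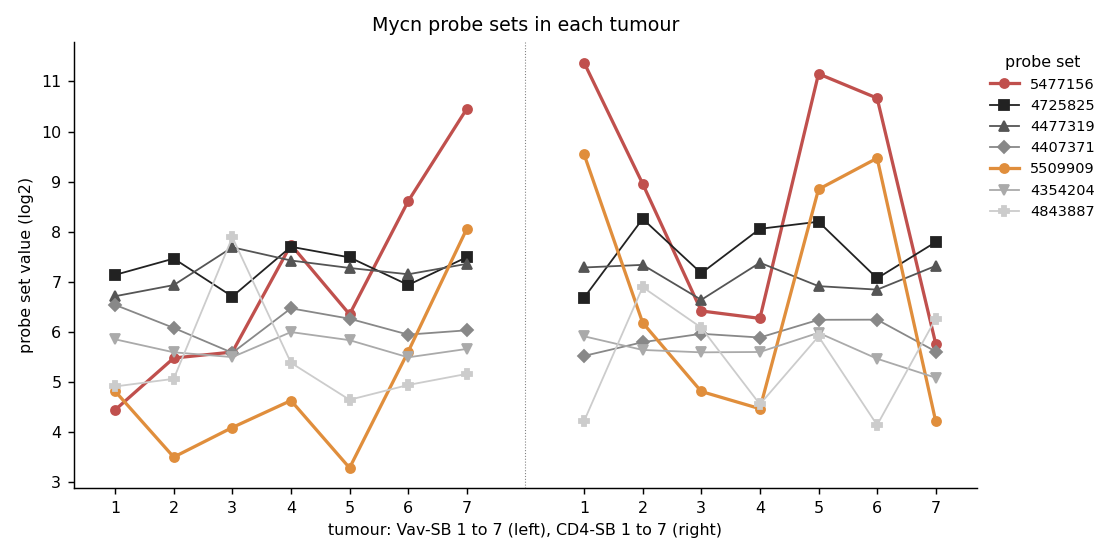
Values (log2, y axis) of the 7 Mycn probe sets in Vav-SB tumours 1 to 7 (left) and CD4-SB tumours 1 to 7 (right). Probe sets 5477156 (red) and 5509909 (orange) climb together in CD4-SB tumours 1, 5 and 6 and Vav-SB tumour 7, while most others stay flat.

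Under that mean lay a far wider swing in 2 of the 7 Mycn probe sets. Probe set 5477156 read 4.43, 5.47, 5.59, 7.74, 6.35, 8.61 and 10.46 in Vav-SB tumours 1 to 7, against 11.38, 8.96, 6.41, 6.26, 11.15, 10.67 and 5.76 in CD4-SB tumours 1 to 7. Probe set 5509909 read 4.81, 3.49, 4.08, 4.62, 3.28, 5.60 and 8.06 in Vav-SB tumours 1 to 7, against 9.55, 6.18, 4.80, 4.46, 8.84, 9.47 and 4.20 in CD4-SB tumours 1 to 7. Both put CD4-SB tumours 1, 5 and 6 and Vav-SB tumour 7 at the top, CD4-SB tumour 2 and Vav-SB tumour 6 in between, and CD4-SB tumours 3, 4 and 7 low.

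Over 14 tumours their SDs were 2.38 and 2.23, and only 0.109% and 0.164% of named probe sets varied more. They followed each other with r = 0.803 in Vav-SB and 0.978 in CD4-SB tumours, given as a description over 7 tumours each. Of the other 5 probe sets, 4 had SDs of 0.25 to 0.52 and 4843887 had 1.07 and reached 7.89 in Vav-SB tumour 3. The mean of those 5 stayed between 6.09 and 6.67 in Vav-SB and between 5.92 and 6.78 in CD4-SB tumours. Alone, 5477156 differed by -1.71 and 5509909 by -1.94, and neither passed in limma (adjusted p = 0.382 and 0.253).

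High Mycn signal and a low Myc gene level met in 3 CD4-SB tumours. The mean of 5477156 and 5509909 was 10.46, 10.07 and 10.00 in CD4-SB tumours 1, 6 and 5, the tumours whose Myc levels, 8.31, 9.66 and 9.59, were the lowest of all 14. In Vav-SB tumour 7 that mean was 9.26 with Myc at 10.74, inside the range of the other Vav-SB tumours. CD4-SB tumours 3, 4 and 7, with Mycn means of 5.61, 5.36 and 4.98, had Myc levels of 10.49, 9.96 and 10.98. The level of other cell types' markers was 8.96, 8.49 and 8.74 in CD4-SB tumours 1, 6 and 5, against 7.83 to 8.41 in tumours 2, 4 and 7 and 8.78 in tumour 3, and its part in this pattern was not tested. By gene level, Myc and Mycn in CD4-SB had r = -0.622 (exact permutation p = 0.134, adjusted p = 0.819). Their rho was -0.821 (exact permutation p = 0.0341, adjusted p = 0.538), and r was -0.528 without the 2 tumours farthest from the median. As Mycn lay in separate sets there, nothing was concluded from these correlations. The 2 probe sets were picked after their values were seen. CD4-SB tumours 5, 6 and 7 share a title number, and tumour 7 stood apart from tumours 5 and 6 in both genes.

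Max, the shared partner, varied little, with an SD of 0.10 in Vav-SB and 0.20 in CD4-SB. Its level ran from 10.99 to 11.25 with a median of 11.16 in Vav-SB, against 10.96 to 11.47 with a median of 11.19 in CD4-SB, and the groups overlapped. The difference was -0.08 (SE 0.09, 95% interval -0.27 to 0.11, limma adjusted p = 0.628). The highest Max levels, 11.45, 11.47 and 11.38, were in CD4-SB tumours 3, 4 and 7, the ones low in Mycn, and the lowest of all 14 was CD4-SB tumour 1.

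Mxd3, a Max partner that is unusual among the Mxd genes in being known from dividing rather than resting cells, was the gene that passed. Its levels were 7.90, 7.82, 7.31, 7.85, 7.68, 7.63 and 7.84 in Vav-SB tumours 1 to 7, against 7.25, 7.21, 7.11, 7.90, 7.15, 7.29 and 7.28 in CD4-SB tumours 1 to 7. It was higher in every Vav-SB tumour than in 6 of the 7 CD4-SB tumours, and CD4-SB tumour 4 lay level with the highest Vav-SB tumour. Mxd3 rose by 0.41 (SE 0.13), or 1.32-fold, in Vav-SB (limma adjusted p = 0.0424), and 1 call in 8 genes is near the 14.5% of all genes. The call was lost with the median over probe sets (0.29, adjusted p = 0.163), with 1 tumour per title number (0.37, adjusted p = 0.164), with the marker level above as a covariate (0.24, adjusted p = 0.497), with the Y-linked level as a covariate (0.43, adjusted p = 0.0575) and when any 1 of 12 of the 14 tumours was left out. Without CD4-SB tumour 4 the difference was 0.50 (adjusted p = 0.00395), and without Vav-SB tumour 3 it was 0.47 (adjusted p = 0.0164).

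All 6 Mxd3 probe sets were higher on average in Vav-SB, by 0.21 to 0.82. The widest, 4605411, ran from 8.65 to 9.43 with a median of 9.20 in Vav-SB, against 7.80 to 9.04 with a median of 8.32 in CD4-SB. It passed alone (0.82, SE 0.18, limma adjusted p = 0.0095). CD4-SB tumour 4, at 9.04, was its only CD4-SB tumour inside the Vav-SB range.

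**Figure D4:**
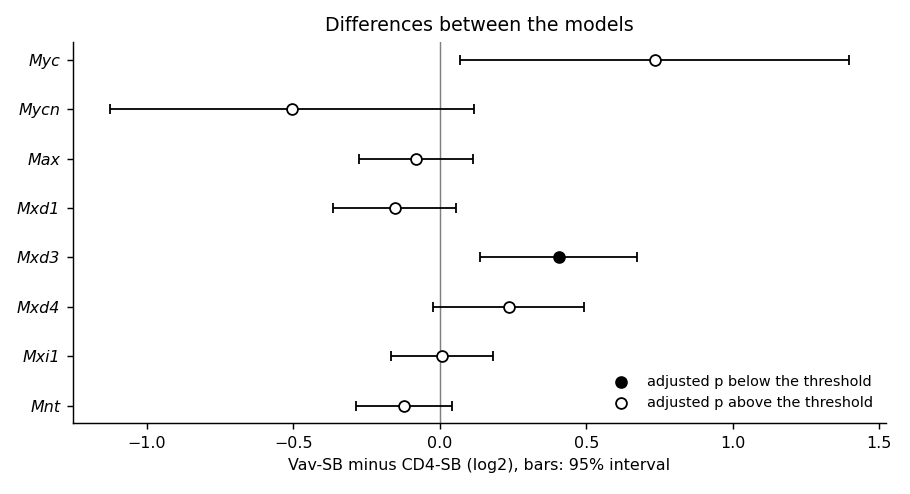
Difference in level of each gene, Vav-SB minus CD4-SB (log2, x axis), with 95% intervals from the fit over all genes. The filled point, Mxd3, passed the adjusted threshold, and the interval of Myc lies above 0 although its adjusted p is 0.135.

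The other repressor partners did not pass. Mxd1, known from differentiating blood cells, ran from 7.56 to 8.03 with a median of 7.71 in Vav-SB, against 7.74 to 8.31 with a median of 7.88 in CD4-SB (difference -0.15, SE 0.10, limma adjusted p = 0.34). Mxd4, found mostly in resting cells, ran from 7.53 to 8.01 with a median of 7.61 in Vav-SB, against 7.14 to 7.77 with a median of 7.58 in CD4-SB (difference 0.23, SE 0.12, limma adjusted p = 0.226). Mnt, the most widely expressed antagonist, ran from 7.98 to 8.26 with a median of 8.08 in Vav-SB, against 8.08 to 8.42 with a median of 8.22 in CD4-SB (difference -0.12, SE 0.08, limma adjusted p = 0.334). Groups overlapped in each of these genes.

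Mxi1, also called Mxd2, ran from 6.87 to 7.38 with a median of 7.18 in Vav-SB, against 7.00 to 7.27 with a median of 7.14 in CD4-SB. Its difference of 0.01 (SE 0.08, limma adjusted p = 0.963) had a 95% interval of -0.17 to 0.18. That interval leaves room for a difference of either sign of up to about the SD among the Vav-SB tumours, 0.16. It was the only one of the 8 genes with a lower SD in CD4-SB, 0.09, than in Vav-SB.

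Between the 8 genes, 56 relations were tested, 28 in each model, and 0 passed after adjustment by Pearson's r or Spearman's rho. By r, 5 had an exact permutation p under 0.05 before adjustment, and the lowest adjusted p was 0.267, for Myc and Mxd4 in Vav-SB. There the tumours lay in separate sets, so the values are given instead: tumours 3, 4 and 5 had Mxd4 at 7.98, 7.85 and 8.01 with the lowest Myc of the model, 10.36, 10.58 and 10.50. The other 4 Vav-SB tumours had Mxd4 between 7.53 and 7.61 and Myc between 10.71 and 11.03. In CD4-SB the same pair had r = -0.461 (exact permutation p = 0.31, adjusted p = 0.819) and rho = -0.429 (exact permutation p = 0.354, adjusted p = 0.852), with r = -0.0199 without the 2 tumours farthest from the median. Whether the models differ in this was not tested.

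Among genes above the median level, the ones most like Myc over 14 tumours, after each model's own mean was subtracted, were Zfp146 (r = 0.961), Pank4 (r = 0.892), Phykpl (r = 0.892), Eif4enif1 (r = 0.887) and Ccnh (r = 0.883). The ones most opposed were Itgb5, an integrin subunit (r = -0.929), Nrp1, a neuropilin receptor (r = -0.924), and Ehd1 (r = -0.905). Over the CD4-SB tumours alone Zfp146 had r = 0.987 and Itgb5 had r = -0.945. Mycn was most like Slco3a1 (r = 0.853), Ly6g5b (r = 0.836), Clic1 (r = 0.826), Rnf150 (r = 0.821) and Shtn1 (r = 0.81). It was most opposed to Tcf20 (r = -0.858), Maco1 (r = -0.852) and Fahd2a (r = -0.842). These were picked as the extremes of 7900 genes for Myc and 7901 for Mycn, so they are a description. Those of Myc rest mainly on the CD4-SB tumours, where Myc varied most. Mycn varied in both models, with SDs of 0.51 in Vav-SB and 0.67 in CD4-SB. Of its list, Clic1 had r = 0.845 in Vav-SB and 0.843 in CD4-SB, and Rnf150 had 0.475 and 0.969.

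Of 5 genes of the wider Max network 1 passed, Mga, too few genes to read against the 14.5% of all genes. Mga, a Max partner that also carries a T-box domain and works in a Polycomb complex, ran from 9.67 to 10.01 in Vav-SB, against 9.27 to 9.63 in CD4-SB, with no overlap, and rose by 0.39 in Vav-SB (SE 0.09, limma adjusted p = 0.00904). With the marker covariate Mga had 0.30 (adjusted p = 0.236). Mlx, a partner that stands in for Max, differed by 0.15 (adjusted p = 0.434). Its glucose-sensing partners Mlxip and Mlxipl differed by 0.03 (adjusted p = 0.884) and 0.13 (adjusted p = 0.672), and Mycl, the third Myc gene, by -0.02 (adjusted p = 0.935). In Mlxip and Mycl the sign depended on the setting.

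**Figure D5:**
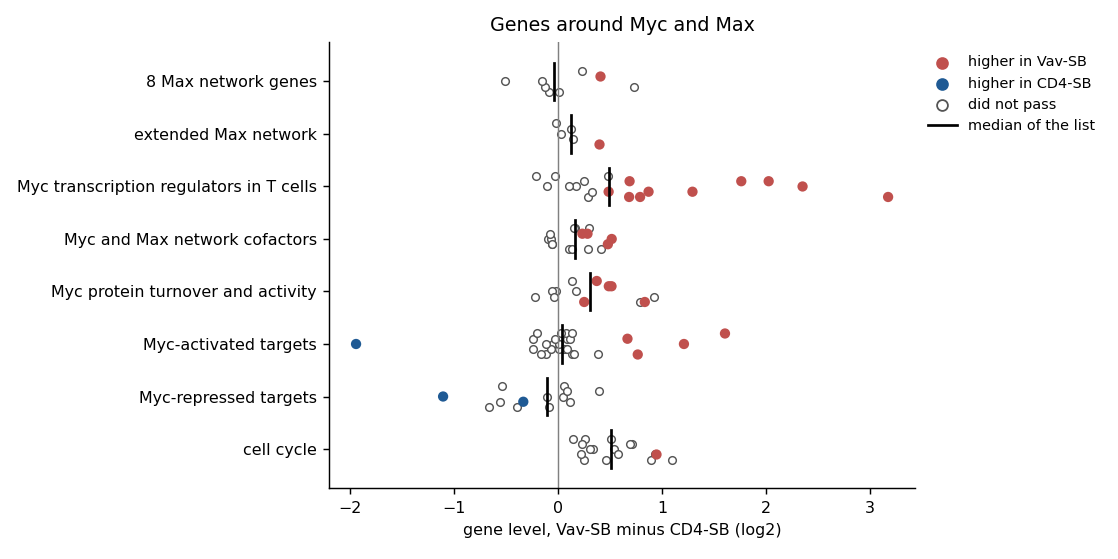
Difference in level, Vav-SB minus CD4-SB (log2, x axis), of each measured gene of 8 lists (rows). Filled points passed the adjusted threshold, and black lines are list medians. The highest medians are those of cell cycle genes, 0.52 with 1 of 17 passed, and regulators of Myc transcription, 0.49 with 10 of 19 passed, while Myc-activated targets centre near 0. Over all genes 14.5% passed.

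Of known regulators of Myc transcription in T cells, 10 of 19 measured genes rose in Vav-SB and 0 fell, beside 14.5% of all genes in either direction, with a median difference of 0.49. The other 9 did not pass, and 3 of them, Ctnnb1 (-0.11), Nfatc1 (-0.02) and Stat3 (-0.21), had a lower mean in Vav-SB. Notch1 ran from 10.20 to 11.22 in Vav-SB, against 7.30 to 7.98 in CD4-SB, and rose 9.03-fold (3.18, SE 0.17, limma adjusted p = 2.9e-08). Bcl11b, a T-lineage commitment factor, rose by 0.69 (adjusted p = 4.5e-05), Notch3, a second Notch receptor, by 1.29 (adjusted p = 0.000181) and Lef1, a Wnt-pathway factor, by 2.35 (adjusted p = 0.000591). With the marker covariate 3 of the 10 passed, Notch1, Notch3 and Bcl11b, beside 2.73% of all genes, while 16 of 19 stayed higher in Vav-SB with a median of 0.72. Among the calls lost there, Myb, a factor of T-cell progenitors, had 2.05 (adjusted p = 0.0505) against 2.03 without the covariate. Gata3, a T-lineage factor, had 0.75 (adjusted p = 0.161) against 0.79, Runx1, a blood-lineage factor, 0.96 (adjusted p = 0.111) against 0.69, and Lef1 1.56 (adjusted p = 0.0934) against 2.35. Within Vav-SB, Notch1 and Myc had r = -0.324 (exact permutation p = 0.491, adjusted p = 0.873) and rho = -0.429 (exact permutation p = 0.354, adjusted p = 0.629), with r = -0.975 without the 2 tumours farthest from the median. In CD4-SB they had r = 0.321 (exact permutation p = 0.444, adjusted p = 0.873) and rho = 0.0714 (exact permutation p = 0.906, adjusted p = 0.963), with r = 0.45 without the 2 farthest. CD4-SB tumour 7 had the second highest Myc of all 14 tumours with Notch1 at 7.34.

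Of cofactors of Myc and of the Mxd proteins, 4 of 16 measured rose and 0 fell, beside 14.5% of all genes, with a median difference of 0.16. Sin3b, a Sin3 corepressor scaffold through which Mxd proteins act, ran from 8.38 to 8.83 in Vav-SB, against 8.05 to 8.30 in CD4-SB. It rose by 0.52 in Vav-SB (SE 0.08, limma adjusted p = 0.000629). Bptf, a chromatin remodeller (0.48, adjusted p = 0.0234), Trrap, the scaffold of acetyltransferase complexes that Myc recruits (0.29, adjusted p = 0.0316), and Ep400, an ATPase of one of them (0.24, adjusted p = 0.0339), also rose. Sin3a, the other Sin3 scaffold of the list, did not pass (-0.05, SE 0.27, limma adjusted p = 0.93). None of the 16 passed with the marker covariate, beside 2.73% of all genes. Sin3b had 0.42 there (limma adjusted p = 0.063) and the list's median was -0.06. Trrap and Ep400 each lost the call in at least 8 of 14 fits that left out 1 tumour, and 2 to 4 of the list passed in those fits.

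Of genes that set the stability or activity of the Myc protein, 5 of 14 measured rose and 0 fell, beside 14.5% of all genes, with a median difference of 0.31. They were Gsk3b, the kinase that marks Myc for breakdown (0.37, SE 0.07, limma adjusted p = 0.00454), Usp7, a deubiquitinase (0.52, adjusted p = 0.00485), Fbxw7, the ubiquitin ligase subunit that reads that mark (0.49, SE 0.10, adjusted p = 0.00592), Skp2, another ligase subunit (0.84, adjusted p = 0.00953), and Huwe1, a further ubiquitin ligase (0.25, adjusted p = 0.0166). The groups did not overlap in 3 of the 14, Gsk3b, Fbxw7 and Huwe1, beside 4.04% of all genes. Gsk3b (0.47) and Fbxw7 (0.64) were the 2 of 14 that passed with the marker covariate, beside 2.73% of all genes. Skp2 had 0.21 and Usp7 0.18 there. Huwe1 was named as the fifth of 5 after its value was seen.

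Of Myc-activated targets, 4 of 28 measured genes rose and 1 fell, beside 14.5% of all genes, with a median difference of 0.04 and 18 of 28 higher on average in Vav-SB. Tert, the telomerase reverse transcriptase, rose by 0.77 (SE 0.18, limma adjusted p = 0.0103), Cdc25a, a phosphatase that starts S phase, by 0.67 (adjusted p = 0.0229), Cdca7, a chromatin factor of dividing cells, by 1.61 (adjusted p = 0.0351) and Tfrc, the transferrin receptor, by 1.21 (adjusted p = 0.0353). Ccnd2, a G1 cyclin, ran from 7.35 to 8.50 in Vav-SB, against 7.38 to 10.84 in CD4-SB, and fell by 1.94 in Vav-SB (SE 0.43, adjusted p = 0.00816). Cdca7 lost its call in 9 of 14 fits that left out 1 tumour (adjusted p up to 0.0726), and 2 to 6 of the list passed in those fits. Nucleolar genes of the list did not pass, for example Ncl (0.06, adjusted p = 0.765) and Nop56 (0.11, adjusted p = 0.818). With the marker covariate 24 of the 28 were lower in Vav-SB, with a median of -0.63, and 1 passed, beside 2.73% of all genes. It was Ppat, an enzyme of purine synthesis (-1.01, limma adjusted p = 0.0493). There Ncl had -0.23, Nop56 -0.69, Cdca7 -0.05 and Tfrc 0.07, while Tert had 0.75 (adjusted p = 0.165) against 0.77 without the covariate.

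As a mean over the 28, the targets had 9.23 ± 0.19 in Vav-SB and 9.14 ± 0.45 in CD4-SB tumours (SD, n = 7 each). That mean was 9.30, 9.44, 8.86, 9.13, 9.26, 9.31 and 9.34 in Vav-SB tumours 1 to 7, against 8.75, 9.49, 8.71, 9.69, 8.86, 8.83 and 9.67 in CD4-SB tumours 1 to 7. CD4-SB tumours 2, 4 and 7, the 3 in which probe set 5107776 dropped away from the rest of Myc, lay above every Vav-SB tumour, and the other 4 CD4-SB tumours lay at the level of the lowest Vav-SB tumour or below. Their cell cycle means were 9.53, 9.77 and 9.68, against 8.65, 7.50, 8.72 and 8.93 in CD4-SB tumours 1, 3, 5 and 6. The same 3 tumours had the lowest other-cell marker levels of the model, 7.83, 8.41 and 7.97, and the part of cell content in these levels was not tested. CD4-SB tumour 3 combined a Myc level of 10.49 with the lowest target and cell cycle means of all 14 tumours. In Vav-SB, where the points form 1 spread, Myc and the target mean had r = 0.686 (exact permutation p = 0.11, adjusted p = 0.673), rho = 0.714 (exact permutation p = 0.0881, adjusted p = 0.629), and r = 0.62 without the 2 tumours farthest from the median. In CD4-SB the same pair had r = 0.574 (exact permutation p = 0.159, adjusted p = 0.673) and rho = 0.429 (exact permutation p = 0.354, adjusted p = 0.629). Without the 2 farthest tumours its r was 0.221.

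Of Myc-repressed targets, 0 of 13 rose and 2 fell in Vav-SB, near the 14.5% of all genes, with a median difference of -0.11. Cdkn1a, the cell cycle inhibitor p21, ran from 6.77 to 8.15 in Vav-SB, against 7.68 to 8.82 in CD4-SB, and fell by 1.10 (SE 0.24, limma adjusted p = 0.00709). Cebpa, a myeloid differentiation factor, fell by 0.33 (adjusted p = 0.0388), a call lost in 10 of 14 fits that left out 1 tumour (adjusted p up to 0.0842). In those fits 1 to 3 of the list passed. None of the 13 passed with the marker covariate, beside 2.73% of all genes, and Cdkn1a had -0.63 and Cebpa -0.14 there. All 17 measured cell cycle genes had a higher mean in Vav-SB, with a median difference of 0.52 beside 0.0043 over all genes. Their mean level ran from 8.77 to 9.81 in Vav-SB tumours, against 7.50 to 9.77 in CD4-SB tumours, so the groups overlapped. With the marker covariate 14 of the 17 were lower in Vav-SB and the median was -0.45. Without the covariate 1 of the 17 passed, beside 14.5% of all genes. It was Tyms, which makes thymidylate (0.94, SE 0.30, limma adjusted p = 0.0478). The call of Tyms was lost in 10 of 14 fits that left out 1 tumour, where 0 to 3 of the list passed.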

How the data were processed

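The 14 tumours were profiled on mouse exon arrays. Per the labels' protocols, frozen tissue gave RNA that was amplified to cDNA from a small input and labelled with biotin, which adds spread between arrays. The authors deposited log2 values per probe set. The submitters' processing notes list RMA and Partek, with no versions; the log base is read from the values, 2.03 to 14.03. Column medians of 7.46 to 7.50 leave changes in total RNA unseen, and folds of dim genes are understated. The number of arrays limits the precision. Of 194293 probe sets, 179496 had 1 symbol in the platform annotation, and their means gave 15803 genes, with no filter. Symbols were updated with RefSeq GRCm38.p6.

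Vav-SB minus CD4-SB was tested with limma 3.58.1 (lmFit, eBayes) in R 4.3.3 over all genes, with Benjamini-Hochberg at 0.05, and with diffSplice over 177027 probe sets of genes with at least 3. On simulated data the gene fit recovered 46%, 88% and 100% of changes of 0.5, 1 and 2 (log2) with 12 false calls among 15803 genes. That simulation moved 50 genes per size of change and gave both models the same spread in each gene. In the data more genes differ and CD4-SB tumours vary more, so these shares are not the power of the real comparison. diffSplice recovered 95% of probe sets moved by 2 but made 456 false calls, so a test with each probe set's own spread (86%, 12 false calls) was added after the data were seen, as was each probe set alone. Correlations used exact permutation within a model.

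The 8 genes, the lists and the tests were chosen with earlier results of these data known. Genes named are the 8, the 5 of the wider network, Notch1, up to 4 per list by smallest adjusted p, and the 5 most and 3 least like Myc or Mycn. Huwe1, Tfrc, Ncl, Nop56, Ppat, Myb, Gata3, Runx1, Ctnnb1, Nfatc1, Stat3 and Sin3a were named after their values were seen. Groups came from the strain label. Nothing says that tumours came from separate animals, and the first number of the title is shared by some CD4-SB ones (4 numbers among 7 CD4-SB, 7 among 7 Vav-SB), so a p-value reflects only how far these tumours vary. Alternatives covered the summary over probe sets, dim probe sets, quantile normalization, priors, array weights, title numbers, 2 covariates and leaving out each tumour.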

Additional observations from a re-analysis of the deposited data

Results flagged for a closer look

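Among 152 groups of 7 tumours (14 genes, which are the 8, the 5 of the wider network and Notch1, the 59 probe sets, and the 3 mean levels of activated targets, cell cycle genes and other cell types' markers, in each model), 12 held a tumour far from the other 6 by Dixon's 95% criterion. Chance gives about 1 in 20 such groups. CD4-SB tumour 4 stood high in Mxd3, at 7.90 against at most 7.29 in the other CD4-SB tumours. CD4-SB tumour 3 stood high in 3 genes: Mlxip at 8.84, Mlxipl at 7.53 and Notch1 at 7.98. Vav-SB tumour 4 stood high in Mycl at 6.68 and low in Mnt probe set 5388443 at 7.84. Vav-SB tumour 3 stood high in Mxd1 probe set 4689646 at 8.41 and in Mycn probe set 4843887 at 7.89, where the next tumour had 5.38, and low in Myc probe set 5385579 at 10.67. Vav-SB tumour 1 stood low in Max probe sets 5141415 at 11.87 and 5375432 at 11.98. Vav-SB tumour 6 stood high in Mnt probe set 5196128 at 8.38. What set these tumours apart was not tested.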

How the results depend on the processing

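The number of arrays limits what can be told: 46% of changes of 0.5 (log2) were recovered in simulated data with equal spread in both models. No paired analysis was possible because replicate numbers follow the order of deposition and pair no tumours across models. Genes past the threshold ran from 1628 to 2518 with 1 tumour left out, and were 431 with the marker level of other cell types as a covariate. That level is partly confounded with the model, so changes under this covariate cannot be assigned to model or cell content. Max, Mxd1, Mxd4, Mnt and Mycn kept their sign and stayed above the threshold in every alternative that could be run. Myc ran from 0.46 to 0.91 with 1 tumour left out, passing only without CD4-SB tumour 7, and was 1.08 with 1 tumour per title number and -0.10 with the marker covariate. Mxd3 ran from 0.37 to 0.50 with 1 tumour left out (adjusted p = 0.00395 to 0.0856), and was 0.29 with the median, 0.37 with 1 tumour per title number, 0.24 with the marker covariate and 0.43 with the Y-linked one. Mxi1 changed sign with the median (-0.029), bright probe sets (-0.081), the marker covariate (-0.060) and the Y-linked one (-0.031), and ran from -0.030 to 0.055 with 1 tumour left out. Mycl changed sign with the median (0.0081) and the marker covariate (0.070), from -0.098 to 0.038 with 1 tumour left out. Mlxip did so with 1 tumour per title number (-0.012) and the Y-linked covariate (-0.071), from -0.0084 to 0.118 with 1 tumour left out. Cdca7 was -0.053 with the marker covariate. Probe sets apart from their gene were 1769 to 2585 with 1 tumour left out and 1348 among bright probe sets only, where fewer were tested. Near-zero relations in Vav-SB changed sign: Myc with markers by rho (0.107), Mycn with Notch1 by rho (0.143), and Mycn with the median over probe sets against targets (0.2), cell cycle (0.31) and markers (-0.389). With the marker covariate the lists had 0 (wider network), 3 (regulators), 0 (cofactors), 2 (turnover), 1 (activated), 0 (repressed) and 0 (cell cycle) genes past the threshold. Of all genes 2.73% passed there. The medians of the cofactors, activated, repressed and cell cycle lists changed sign with it (-0.062, -0.63, 0.090 and -0.45). The causes were not tested.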
